A study of Mus musculus with 48 samples.

Results

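Keratins and vimentin are proteins of the intermediate filaments, and their transcripts are described here for 7 genes of the 24054 in the count table: Krt5, Krt7, Krt8, Krt14, Krt18, Krt19 and Vim. The members were taken by name, and all 7 have a row in the table. Keratin filaments form only when a type II keratin (among the members Krt5, Krt7 and Krt8) pairs with a type I keratin (Krt14, Krt18 and Krt19), whereas vimentin assembles with itself. In the mammary gland Krt8 and Krt18 make up the filaments of luminal cells, where Krt7 and Krt19 are also found, and Krt5 and Krt14 those of basal and myoepithelial cells. Vimentin is the filament protein of mesenchymal cells and of leukocytes, and the loss of keratins with a gain of vimentin is used as a readout of epithelial-mesenchymal transition.

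RNA was sequenced from 8 cultured mouse breast tumour lines and from myeloid cells sorted out of 4 tumours, with 3 libraries in each of 16 groups. The lines form 4 same-strain pairs of a line with the suffix Epi and a line with the suffix Mes in the authors' column names: PyMT-N and PyMT-M (C57BL/6), 4T1 and 67NR (BALB/C), 2208L and T11 (BALB/C), and AT3 and E0771 (C57BL/6). The lines were untreated and were at labelled passages between 7 and 20. E0771 was grown in RPMI medium with HEPES and the other 7 lines in high-glucose DMEM, so medium and line cannot be told apart in the AT3 and E0771 pair. Macrophages (CD45+ CD11b+ Ly6G- Ly6C- F4/80+) and neutrophils (CD45+ CD11b+ Ly6G+, medium to low Ly6C) came from 2208L, T11, AT3 and E0771 tumours. Both gates required the leukocyte marker CD45, and no epithelial marker was used for or against tumour cells. The strain given for E0771 sorted cells is C57BL/6 except in macrophage 1 and neutrophil 1, which carry BALB/C. Each line stands for itself, since nothing says that its libraries came from separate tumours, and a p-value here measures only how far libraries of a group spread, possibly for technical reasons.

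The promoters of Krt7, Krt8, Krt18 and Vim are shown because these are the main keratins of the epithelial lines and the filament gene that the other lines hold. Each stretch runs from 250 bases before to 50 bases after the RefSeq start site (GRCm38.p6). Capitals mark 2 motifs: the E-box CAGGTG on either strand (CACCTG when read on the other), which the repressors Snai1 and Zeb1 bind, and the TATA box TATAAA.
Krt7, chr15:101412153-101412452, plus strand: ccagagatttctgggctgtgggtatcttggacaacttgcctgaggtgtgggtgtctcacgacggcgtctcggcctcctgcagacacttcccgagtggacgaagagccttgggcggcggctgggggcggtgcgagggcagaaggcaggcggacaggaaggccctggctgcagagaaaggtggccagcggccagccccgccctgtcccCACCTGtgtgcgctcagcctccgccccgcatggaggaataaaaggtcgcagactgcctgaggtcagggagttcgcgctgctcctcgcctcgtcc
Krt8, chr15:102004293-102004592, minus strand: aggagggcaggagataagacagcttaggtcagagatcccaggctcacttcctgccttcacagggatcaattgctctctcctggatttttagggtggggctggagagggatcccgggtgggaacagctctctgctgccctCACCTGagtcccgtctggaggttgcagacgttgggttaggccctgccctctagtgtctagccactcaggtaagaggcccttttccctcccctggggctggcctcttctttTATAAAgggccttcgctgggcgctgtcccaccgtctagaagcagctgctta
Krt18, chr15:102027966-102028265, plus strand: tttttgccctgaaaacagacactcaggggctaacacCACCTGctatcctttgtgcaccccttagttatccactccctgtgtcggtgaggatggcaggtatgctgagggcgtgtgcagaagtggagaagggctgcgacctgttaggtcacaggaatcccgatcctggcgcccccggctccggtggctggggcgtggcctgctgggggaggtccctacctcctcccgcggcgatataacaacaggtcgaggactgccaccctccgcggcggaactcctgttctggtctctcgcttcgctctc
Vim, chr2:13574061-13574360, plus strand: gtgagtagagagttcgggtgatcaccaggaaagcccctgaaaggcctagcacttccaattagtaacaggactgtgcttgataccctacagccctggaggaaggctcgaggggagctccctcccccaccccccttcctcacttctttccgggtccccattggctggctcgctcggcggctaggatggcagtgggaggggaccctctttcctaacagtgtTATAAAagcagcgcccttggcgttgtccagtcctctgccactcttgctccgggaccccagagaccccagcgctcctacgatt

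The 3 keratin promoters each held 1 E-box, at position -44 from the start site in Krt7, -111 in Krt8 and -214 in Krt18. The Vim promoter held none. Of 32851 RefSeq promoters of the same length, 20.2% hold this E-box. A TATAAA lay at -32 in Vim and at -1 in Krt8, against 8.32% of all promoters. The Krt7 window also held 4 copies of the GC box GGGCGG (either strand), which 35.7% of all promoters hold. Krt5 had an E-box at -128, and the window matched for Krt14 (chr11:100205981-100206280, minus strand) held none of the 3 motifs. That window lies inside the annotated gene, which on the minus strand begins at 100207548, so it does not cover the outermost start. The Krt7 and Vim windows also lie inside their annotated genes. RefSeq promoters were matched for 6 of the 7 members. These matches describe letters and say nothing about binding.

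The keratin genes Krt5, Krt7, Krt8 and Krt18 lie on chromosome 15, Krt14 and Krt19 on chromosome 11 and Vim on chromosome 2 (mm10). Krt8 and Krt18 are neighbours, at chr15:101996698-102004482 on the minus strand and chr15:102028180-102032027 on the plus strand. Levels in lines are given as normalised CPM, that is CPM with TMM factors from the fit of the 24 line libraries. Counts outside Rn45s, the ribosomal RNA row, ran from 1893268 to 5749088 in lines, from 683150 to 1755895 in macrophages and from 470712 to 1185233 in neutrophils. Every library also held a low density of counts over genes that breast and myeloid cells are not known to use. The density over the exons of 1444 olfactory and vomeronasal receptor genes was therefore taken as background, and a level "times the receptor density" is a gene's counts per kb of exon divided by it. Endothelial and lymphocyte marker lists, 2 gene sets foreign to the cultured lines, stood at 3.61 to 7.1 times the receptor density in line libraries. Keratinocyte markers stood at 3.0 to 11.5 times in macrophages and 1.6 to 4.82 times in neutrophils. In neutrophils the endothelial list stood at 3.69 to 7.92 times and the lymphocyte list at 2.33 to 7.42 times.

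Keratins split the 8 lines into 3 with an epithelial set and 5 without it. PyMT-N, 4T1 and 2208L carried Krt7, Krt8 and Krt18 as their main keratins, with less Krt19 and Krt14 and between 160 and 754 normalised CPM of Vim. PyMT-M, 67NR, T11, AT3 and E0771 held Krt7, Krt14 and Krt19 at no more than 9.29 times the density of receptor genes and between 1702 and 2885 normalised CPM of Vim. Among those 5, Krt8 and Krt18 did not go together: E0771 and PyMT-M held Krt8 without Krt18, T11 held Krt18 without Krt8, AT3 held a little of each and 67NR neither. Of the 7 members 6 passed the low-count filter in lines and all 6 differed between the lines (edgeR quasi-likelihood F test, adjusted p between 4.67e-87 and 2.34e-53), as did 89.1% of all 18348 genes tested.

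**Figure D1:**
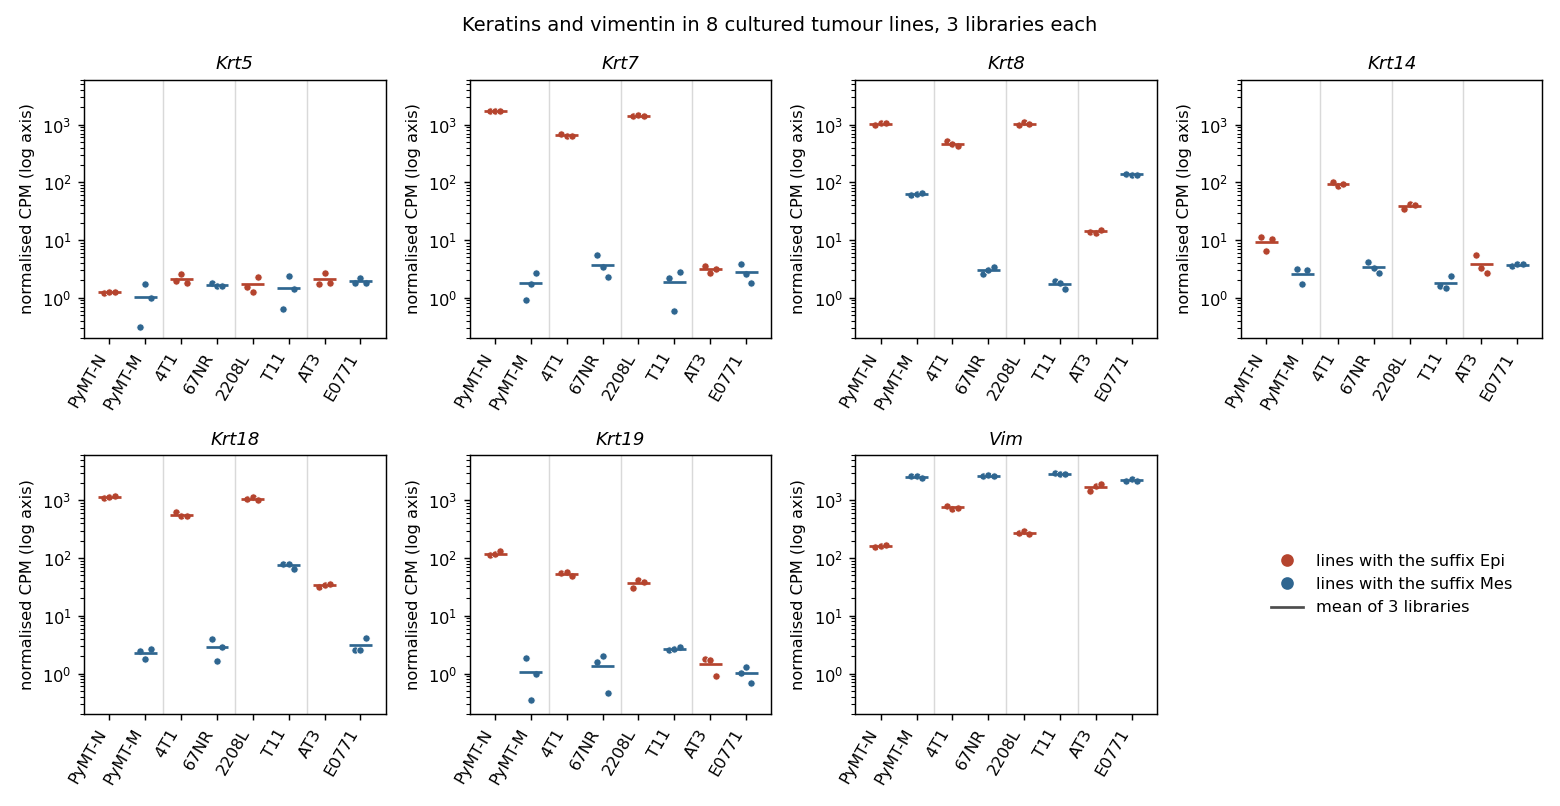
Normalised CPM (log axis) of the 7 members in the 8 lines, with 1 point per library and a bar at the mean of 3 libraries. Red marks lines with the suffix Epi and blue lines with the suffix Mes. AT3 sits with the blue lines for Krt7, Krt14, Krt19 and Vim, and Krt8 and Krt18 are high in different blue lines.

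Krt7, a type II keratin of simple and ductal epithelia, had 1709, 1712 and 1713 normalised CPM in the PyMT-N libraries. It had 1411, 1483 and 1399 in 2208L and 682, 631 and 638 in 4T1. In the other 5 lines it lay between 0.601 and 5.43 normalised CPM in single libraries, or 1.95 to 3.28 times the receptor density per line, which is below the range of foreign genes. The 3 high lines did not overlap one another or any other line, and the 5 low lines overlapped. PyMT-N stood above 2208L by 0.26 ± 0.09 on the log2 scale (SE, adjusted p = 0.00975), the smallest step for Krt7 between neighbours in the order of lines that passed the test. Within the 5 low lines neighbours in the order did not pass (adjusted p between 0.269 and 0.998), but 67NR, the highest, passed against PyMT-M (1.08 ± 0.39 on the log2 scale, adjusted p = 0.0144), and T11 was at -1.08 ± 0.39 against 67NR (adjusted p = 0.0191). The receptor density was also higher in 67NR (0.305 to 0.33 CPM per kb) than in PyMT-M (0.206 to 0.269) and T11 (0.206 to 0.268). Its part in these calls at background level was not tested. Counts per base understate Krt7 where its annotated exons, 4094 bases in GENCODE M21, include a long transcript that the cells may not use.

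Krt8, the type II partner of Krt18 in simple epithelia, spread over more levels than any other keratin here. It had 976, 1070 and 1050 normalised CPM in PyMT-N and 968, 1100 and 1010 in 2208L, which overlapped and did not pass the test against each other (log2 difference 0.01 ± 0.08, adjusted p = 0.946). 4T1 had 524, 455 and 430. E0771 followed with 140, 136 and 136, PyMT-M with 60.8, 62.2 and 65.3 and AT3 with 13.9, 13.4 and 15.2. The lowest lines were 67NR (2.61, 3.04 and 3.39) and T11 (1.93, 1.8 and 1.42), at 5.58 and 4.08 times the receptor density, and they too did not pass against each other (adjusted p = 0.125). Among the 28 pairs of lines 26 differed in Krt8 at an adjusted p below 0.05. The share of all genes called in such pairs ran from 6.71% to 66.2%, with a median of 47.6%.

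Krt18, the type I partner of Krt8, had 1078, 1163 and 1176 normalised CPM in PyMT-N, 1051, 1129 and 1021 in 2208L and 618, 525 and 530 in 4T1. PyMT-N and 2208L again did not pass against each other (adjusted p = 0.392). T11 came next with 79.7, 79.1 and 65.3 normalised CPM, and then AT3 with 31.96, 34.7 and 36.0. E0771, 67NR and PyMT-M ranged from 1.62 to 4.05 in single libraries, or 7.02 to 8.93 times the receptor density per line, with no difference between neighbours (adjusted p = 0.827 and 0.526). Krt18 differed in 24 of the 28 pairs of lines. The order of the middle lines was thus not that of Krt8: E0771 and PyMT-M came after the epithelial lines for Krt8, and T11 and AT3 for Krt18.

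Set side by side per base of exon, the pair was close to balanced only in the 3 epithelial lines. The ratio of Krt8 to Krt18 was 0.664 in PyMT-N, 0.617 in 4T1 and 0.703 in 2208L. Log2 ratios of single libraries spanned -0.75 to -0.46 over these 9 libraries. In AT3 the ratio was 0.301, with log2 ratios from -1.82 to -1.65. In T11 it was 0.017, from 15 counts of Krt8 and 649 of Krt18 over 3 libraries. In E0771 it was 32.7, from 1874 and 42 counts, and in PyMT-M it was 19.9, from 570 and 21 counts. In 67NR both genes were near the level of foreign genes and their ratio carries no information. Log2 ratios of single libraries ran from 4.62 to 5.31 in E0771, from 4.17 to 4.7 in PyMT-M and from -5.97 to -5.82 in T11. E0771 and PyMT-M lay next to each other and overlapped slightly, and T11 overlapped no other line.

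**Figure D2:**
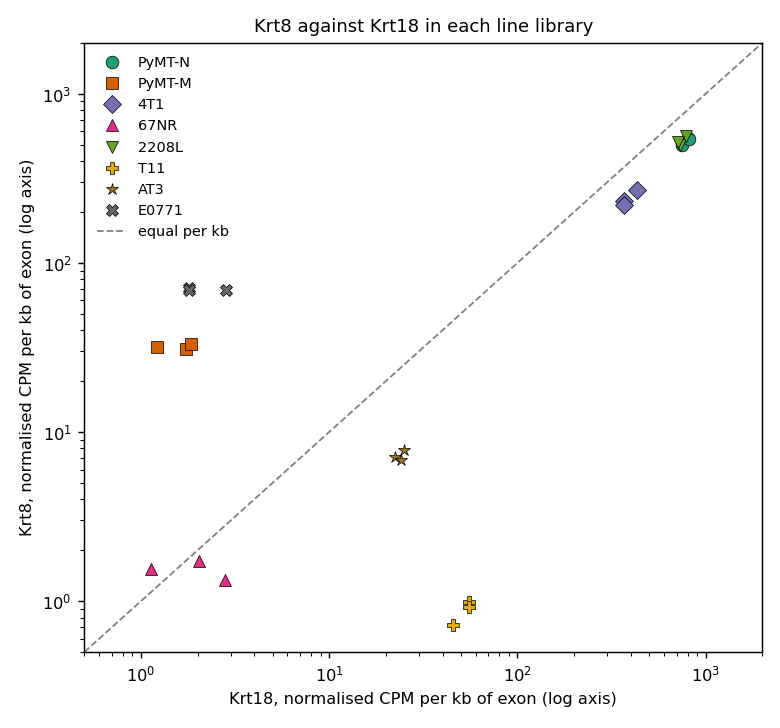
Krt8 against Krt18 in each of the 24 line libraries, both as normalised CPM per kb of exon on log axes, with 1 symbol per line and a dashed line where both are equal. PyMT-N, 4T1 and 2208L lie along the dashed line at its upper end, E0771 and PyMT-M lie far above it and T11 far below it.

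Krt19, a small type I keratin of ductal epithelia, had 111, 116 and 132 normalised CPM in PyMT-N, 54.5, 56.6 and 49.7 in 4T1 and 29.9, 41.4 and 38.3 in 2208L. The other 5 lines had between 0.351 and 2.84. T11 was the highest of these at 2.71 ± 0.13 (SD, n = 3), 7.99 times the receptor density, and did not pass against AT3, the next line (adjusted p = 0.125). Krt14, the type I keratin of basal cells, had another order. 4T1 led with 99.8, 88.2 and 93.2 normalised CPM, followed by 2208L with 34.3, 42.1 and 40.1 and PyMT-N with 11.1, 6.41 and 10.5. The steps from 4T1 to 2208L (1.28 ± 0.12 on the log2 scale) and from 2208L to PyMT-N (2.0 ± 0.16) both passed, with adjusted p = 2.65e-15 and 8.35e-19. The other 5 lines had 1.5 to 5.51 in single libraries. Krt5, the type II partner of Krt14 in basal cells, had only 1 to 19 counts in any line library and was not tested there. It stood at 2.09 to 4.09 times the receptor density in the 8 lines, so Krt14 in 4T1 and 2208L was measured without Krt5 above the level of foreign genes.

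Vim had its highest values in T11, with 2928, 2905 and 2822 normalised CPM, and in 67NR, with 2691, 2729 and 2595. PyMT-M had 2597, 2607 and 2398 and E0771 2188, 2351 and 2190. Neighbours among these 4 did not pass against each other (adjusted p between 0.237 and 0.475), while T11 and 67NR each stood above E0771, by 0.36 ± 0.08 (adjusted p = 0.000203) and 0.25 ± 0.08 (adjusted p = 0.00877) on the log2 scale. AT3 followed with 1436, 1749 and 1920, then 4T1 with 791, 721 and 750, 2208L with 272, 291 and 265 and PyMT-N with 153, 162 and 166, and each of these steps passed (adjusted p at most 4.77e-05). Vim was thus well above background in every line, at 430 times the receptor density in PyMT-N and 6123 times in T11. Over the 8 line means Vim was lower where the keratins were high, with r = -0.95 against Krt7, -0.92 against Krt19, -0.86 against Krt18, -0.82 against Krt8 and -0.65 against Krt14 on the log2 scale. Krt7 went with Krt19 (r = 0.97) more closely than Krt8 with Krt18 (r = 0.6). These are descriptions over 8 points that share their scaling, and the lines form clusters.

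Within the same-strain pairs, the first 3 pairs moved alike in direction and the AT3 and E0771 pair did not. In PyMT-N against PyMT-M, 4T1 against 67NR and 2208L against T11 all 6 tested members were called, 5 keratins higher and Vim lower. In these pairs 24.5%, 23.6% and 22.7% of all genes were called higher and 20.1%, 24.3% and 18.7% lower. Krt19 was higher by 6.73 ± 0.23, 5.23 ± 0.22 and 3.73 ± 0.24 on the log2 scale (SE) in these 3 pairs, with adjusted p = 9.36e-44, 2.44e-36 and 4.53e-25. Krt14 was higher by 1.86 ± 0.3, 4.76 ± 0.17 and 4.43 ± 0.26, with adjusted p = 9.19e-08, 1.14e-40 and 1.24e-27.

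AT3 and E0771 differed in 3 of the 6 tested members, where 45.7% of all genes were called, 20.4% higher and 25.3% lower. Krt8 was lower in AT3 by 3.28 ± 0.11 on the log2 scale (adjusted p = 6.56e-42), whereas Krt18 was higher in AT3 by 3.47 ± 0.19 (adjusted p = 7.83e-29). Vim was lower in AT3 (-0.4 ± 0.08, adjusted p = 4.77e-05), a difference that fell to -0.22 when the scaling came from genes well above background. Krt7, Krt14 and Krt19 did not pass, with log2 differences of 0.19 ± 0.32, -0.0011 ± 0.28 and 0.55 ± 0.48 (adjusted p = 0.647, 0.998 and 0.355). The marker Epcam, which encodes an epithelial adhesion protein, stood at 2.18 ± 0.32 normalised CPM in AT3 and 2.86 ± 0.79 in E0771, against 179 to 454 in the other lines with the suffix Epi. Summed over 12 tumour epithelium markers, AT3 had 46.2 to 78.8 CPM outside Rn45s and the lines with the suffix Mes 35.2 to 60.03, while PyMT-N, 4T1 and 2208L had 1325 to 1797. In these markers AT3 was thus near the lines with the suffix Mes.

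**Figure D3:**
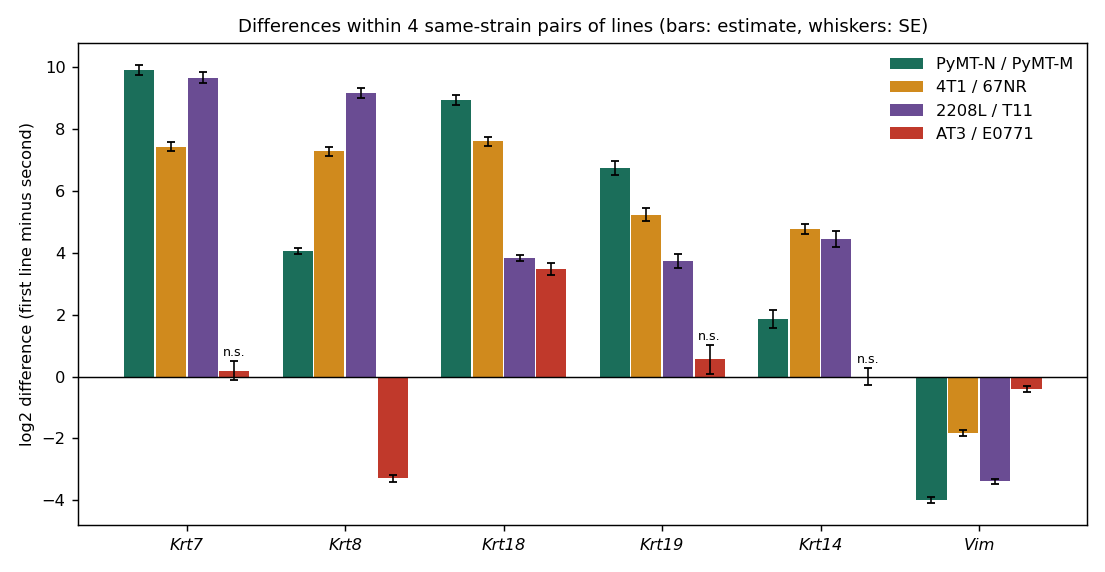
Log2 difference of the first minus the second line of each same-strain pair for 6 members, with the SE as whiskers and n.s. where the adjusted p was not below 0.05. Krt8 is the member whose sign turns round, from +4.04, +7.27 and +9.17 in 3 pairs to -3.28 in AT3 against E0771, while Krt18 is positive in all 4.

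The 4 differences were unlike each other for every tested member, as they were for 69.8% of all genes (edgeR F test of the difference between pairs, adjusted p between 7.55e-69 and 3.75e-12). As the mean of the 4 pairs, Krt18 was higher by 5.95 ± 0.08, Krt7 by 6.79 ± 0.18, Krt8 by 4.3 ± 0.08, Krt19 by 4.06 ± 0.21 and Krt14 by 2.76 ± 0.14 on the log2 scale, and Vim was lower (-2.4 ± 0.05). These means stand for 3 pairs that agree in sign and 1 in which Krt8 goes the other way.

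In PyMT-N, 4T1 and 2208L other keratins made up little of the keratin counts. The members made up 97.0% of all keratin counts in PyMT-N, 90.8% in 4T1 and 96.2% in 2208L, against 9.92% to 55.5% in the other 5 lines. Of 46 other keratin genes 45 were tested. In the mean of the 4 pairs 3 were higher and 0 lower, with a median of 0.03 over the list, against 47.8% of all genes called and a median of 0.03 over all. Krt80, a type II keratin associated with desmosomes, was higher by 2.32 ± 0.12 on the log2 scale (adjusted p = 3.16e-31) and had 44.5 ± 8.4 normalised CPM in PyMT-N, 26.3 ± 1.6 in 4T1 and 37.8 ± 1.8 in 2208L (SD, n = 3 each), against 1.77 to 7.41 in the other lines. Krt17, a stress-induced type I keratin, was higher by 0.76 ± 0.21 (adjusted p = 0.00116), and only PyMT-N had it well above foreign genes (9.59 ± 1.7 normalised CPM, 36.3 times the receptor density). Krt83 was higher by 0.64 ± 0.22 (adjusted p = 0.0113) at 1.34 to 5.22 normalised CPM. Krt14, Krt16 and Krt17 resemble one another in sequence, as do Krt5 and the Krt6 genes, so low counts of one may hold reads of another.

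Among 14 other intermediate filament genes, 1 was higher and 6 were lower in the mean of the 4 pairs, a share near the 47.8% of all genes called, with a median of -0.4. In single pairs 3 to 5 of the 14 were called, 0 or 1 of them higher, with medians from -0.29 in 2208L against T11 to 0.24 in AT3 against E0771. Prph, the neuronal filament protein peripherin, was lower by 1.89 ± 0.24 on the log2 scale as a mean (adjusted p = 7.98e-11), and its level was carried by the lines that held Krt8 without Krt18: 17.8 ± 0.46 normalised CPM in PyMT-M and 13.3 ± 1.8 in E0771, against 0.926 to 1.94 in the other 6. Nes, nestin, which copolymerises with vimentin, was lower by 1.38 ± 0.05 (adjusted p = 3.55e-41), with 18.8 ± 1.3 normalised CPM in 2208L against 158 ± 8.8 in T11 and 72.4 ± 5.5 in AT3 against 237 ± 23 in E0771. In the PyMT pair Nes did not pass (251 ± 13 in PyMT-N, 233 ± 35 in PyMT-M, adjusted p = 0.364). Des, desmin, was lower by 0.74 ± 0.22 (adjusted p = 0.00315) at 1.07 to 7.57 normalised CPM, and Lmna, which encodes the nuclear lamins A and C, by 0.56 ± 0.04 (adjusted p = 1.29e-19). Only 67NR had Des above the range of foreign genes, at 9.07 times the receptor density, against 2.07 to 4.38 times in the remaining lines.

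Of 14 genes of proteins that tie filaments to desmosomes and other structures, 10 were higher and 2 lower in the mean of the 4 pairs, with a median of 0.63, where 23.7% of all genes were higher and 24% lower. In AT3 against E0771 alone 4 of the 14 were higher and 4 lower, with a median of -0.036. Dsp, desmoplakin, the plaque protein that binds keratin filaments, was higher by 2.39 ± 0.08 on the log2 scale (adjusted p = 7.96e-45), Pkp3, plakophilin 3, by 2.34 ± 0.1 and Ppl, periplakin, by 2.18 ± 0.09. Fam83h, which organises keratin filaments, was higher by 2.96 ± 0.1 (adjusted p = 1.98e-42), with 69.0 ± 4.4 normalised CPM in PyMT-N, 77.7 ± 2.6 in 4T1 and 59.2 ± 4.1 in 2208L against 2.64 to 19.3 in the other lines. Dsp stood at 44.9 ± 2.0 normalised CPM in T11, the line with Krt18 alone. In AT3 it was at 14.0 ± 3.6, or 4.68 times the receptor density, which is inside the range of foreign genes. The values were 10.7 ± 1.5 in 67NR, 9.83 ± 3.1 in E0771 and 8.1 ± 1.2 in PyMT-M. Plec, plectin, which links several filament types, was lower in 4T1 than in 67NR (-1.63 ± 0.13) and in 2208L than in T11 (-1.33 ± 0.12) and higher in PyMT-N than in PyMT-M (0.57 ± 0.12), with adjusted p = 2.77e-20, 3.4e-16 and 3.01e-05.

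The genes most like each member were those with the highest Pearson correlation to it over the 8 line means of log2 CPM, among 7567 genes with a mean of at least 4. Krt7 was nearest to Lad1 (r = 0.996), Epcam (0.994) and Tnfaip3 (0.992), and Krt19 to Cdcp1 (0.991), Cdh1 (0.988) and Pkp3 (0.986). Krt8 was nearest to Wfdc2 (0.973), Atad1 (0.967) and Spns2 (0.961), and Krt18 to Stxbp2 (0.984), Homer1 (0.977) and Dsp (0.974). Krt14 had lower values, with D15Ertd621e at 0.949, Fam76b at 0.937 and Snrk at 0.931. Vim was nearest to Hadh (0.972), Cep95 (0.97) and Acap3 (0.96) and farthest from Otud5 (-0.981), Ddx17 (-0.978) and Lamb3 (-0.972). Of these genes 1 of the 3 named for Krt8 was also among the nearest by Spearman's rho, and 0 of the 3 named for each other member. The 8 points are means of 3 libraries that share their scaling and some of the named genes hardly varied: Cep95 ranged from 4.02 to 4.44 in log2 CPM and Atad1 from 6.81 to 7.36.

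In sorted cells, counts of the member keratins were low outside 2208L tumours, and which of them was found depended on the tumour. Among other keratins, Krt80 had the most counts of any keratin in AT3 and in E0771 macrophages. The members made up 7.48% of 628 keratin counts in AT3 macrophages and 10.6% of 1177 in E0771 macrophages. The source of the Krt80 counts was not tested. Levels in sorted cells are CPM outside Rn45s without TMM factors. In bulk samples fewer cells of a type and less RNA per cell cannot be told apart. 2208L macrophages had 65, 69 and 59 counts of Krt7, 51, 79 and 53 of Krt8 and 109, 110 and 142 of Krt18, or 60.8 ± 13.5, 57.6 ± 16.9 and 119 ± 54.5 CPM (SD, n = 3). This is 30.3, 59.9 and 168 times the receptor density, and 4.25%, 5.62% and 11.1% of the CPM in the cultured 2208L line. 2208L neutrophils had 63, 79 and 46 counts of Krt7, 102, 115 and 69 of Krt8 and 162, 155 and 140 of Krt18, at 15.6, 49.9 and 112 times the receptor density and 4.62%, 9.83% and 15.5% of the CPM of the line. Krt19, at 36.5 CPM in the 2208L line, had 6 counts over the 3 macrophage libraries and 17 over the 3 neutrophil libraries, at 2.56 and 3.89 times the receptor density.

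The traces in other tumours were smaller and differed in kind. In AT3 macrophages Krt18 had 3, 13 and 8 counts (18.1 times the receptor density) and Krt8 0, 0 and 2 (1.15 times). In E0771 macrophages Krt8 had 7, 20 and 15 counts (15.4 times) and Krt18 1, 0 and 12 (4.84 times), so that 12 of its 13 counts came from macrophage 3. In E0771 neutrophils Krt8 had 20, 20 and 7 counts (8.2 times) and Krt18 8, 9 and 7 (5.96 times). Krt18 stood at 4.73 times in T11 neutrophils and 5.4 times in AT3 neutrophils, and Krt8 at 2.87 and 2.62 times. In T11 macrophages Krt18 had 2, 10 and 6 counts (10.6 times) and Krt8 2, 4 and 1 (2.88 times). Keratinocyte markers reached 11.5 times the receptor density over all macrophage libraries. The Krt18 value of T11 macrophages is inside that range, and Krt18 in AT3 and Krt8 in E0771 macrophages are above it. That highest value came from E0771 macrophages, where the markers stood at 3.83 to 11.5 times with a median of 6.19. They stood at 3.0 to 3.92 times in T11 macrophages and 3.54 to 3.64 times in AT3 macrophages. In E0771 macrophages the endothelial list stood at 17.97 to 21.7 times, above Krt8, and the lymphocyte list at 12.58 to 16.66 times. In AT3 macrophages fibroblast markers stood at 28.5 to 31.3 times, above Krt18. The endothelial list (5.97 to 11.2 times) and the lymphocyte list (3.79 to 7.77 times) stood below Krt18 there. Whether these keratins stand out from transcripts of other cell types was not tested. Among E0771 macrophages, Krt18 stood above Krt8 per base in macrophage 3 (15.6 against 14.3 times the receptor density) and below it in macrophages 1 and 2. The cultured AT3 line had Krt8 at 22.6 and Krt18 at 74.1 times the receptor density.

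**Figure D4:**
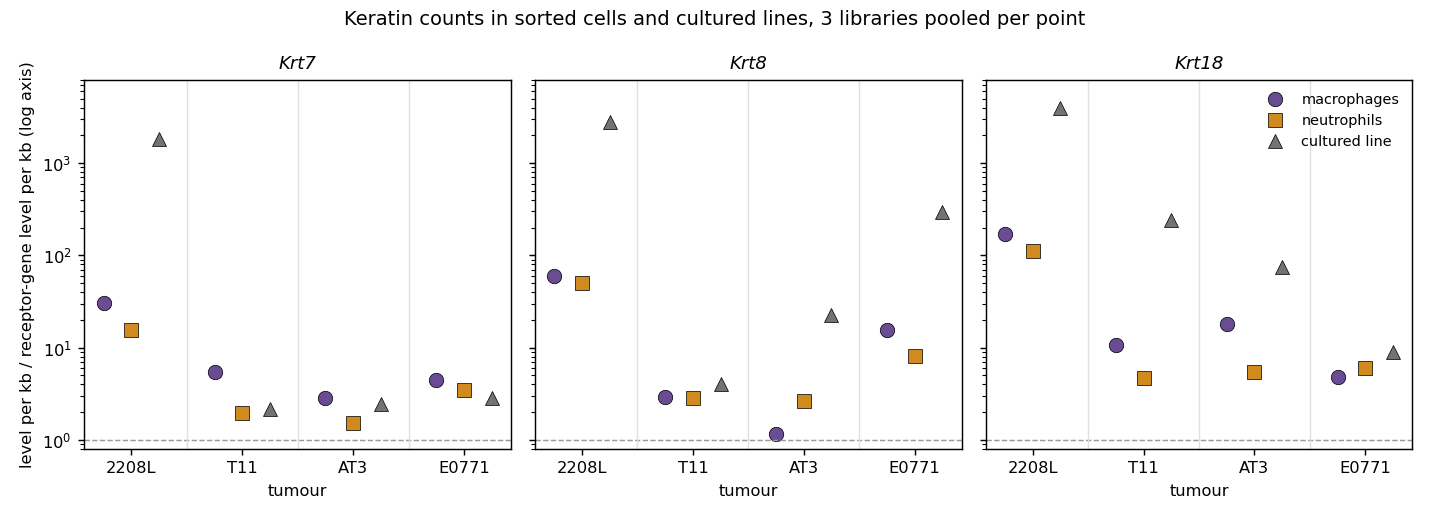
Krt7, Krt8 and Krt18 in macrophages, neutrophils and the cultured line of 4 tumours, as the level per kb of exon divided by that of receptor genes (log axis). Each point is the mean CPM of 3 libraries over their mean receptor density, and a dashed line marks the receptor level. In 2208L all 3 keratins of the sorted cells stand between 15.6 and 168, and in sorted cells of the other tumours Krt18 in AT3 macrophages (18.1) and Krt8 in E0771 macrophages (15.4) are the highest.

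Macrophages of 2208L and T11 tumours differed in 4 of the 5 tested members, where 15.7% of all 14715 genes were called, 7.77% higher and 7.9% lower. Krt8 was higher in 2208L by 4.9 ± 0.65 on the log2 scale (adjusted p = 1.03e-06), Krt18 by 4.61 ± 0.58 (adjusted p = 3.25e-07) and Krt7 by 3.06 ± 0.53 (adjusted p = 6.64e-05). T11 macrophages had only 7 counts of Krt8, and the counts alone give a ratio of T11 to 2208L of 0.0301 (95% exact interval 0.0119 to 0.0632, counting error only). Macrophages of AT3 and E0771 tumours differed in 1 tested member, Krt8 (18.4% of all genes called, 9.68% higher and 8.69% lower). It was lower in AT3 by 4.39 ± 0.83 (adjusted p = 0.000372), a fitted value that depends on the prior count, and the 2 counts in AT3 against 42 in E0771 give a ratio of 0.0302 (95% exact interval 0.00354 to 0.116). Without E0771 macrophage 1, labelled BALB/C, it was -4.65 (adjusted p = 0.000188). Both AT3 counts came from AT3 macrophage 3, and without that library the fitted value was -7.03 (adjusted p = 0.000439). Krt18 did not pass (0.74 ± 0.7, adjusted p = 0.469) and passed when E0771 macrophage 3 was left out (3.41 ± 1.07, adjusted p = 0.0244).

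Neutrophils of 2208L and T11 tumours differed in 4 of 6 tested members (31.9% of all 18158 genes called, 19.4% higher and 12.5% lower). Krt18 was higher in 2208L by 3.61 ± 0.32 on the log2 scale (adjusted p = 8.88e-10), Krt8 by 3.19 ± 0.35 (adjusted p = 5.2e-08) and Krt7 by 2.13 ± 0.36 (adjusted p = 4.76e-05). Krt5 was at -1.3 ± 0.5 (adjusted p = 0.0455), with 12, 6 and 3 counts in 2208L neutrophils and 17, 16 and 13 in T11 neutrophils, and lost its call under DESeq2 (adjusted p = 0.079) and when any of 8 libraries was left out. The receptor density itself was 0.757 to 1.19 CPM per kb in 2208L neutrophils and 2.55 to 3.71 in T11 neutrophils, and scaling from genes well above background moved the median of all genes in this comparison by -1.39. Under that scaling Krt7 stood at 0.69 (adjusted p = 0.234), Krt8 at 1.81 (adjusted p = 0.00342) and Krt18 at 2.26 (adjusted p = 8.28e-05). AT3 and E0771 neutrophils differed in 0 of 6 tested members with edgeR (4.19% of all genes called, 2.37% higher and 1.82% lower). At an unadjusted p below 0.05 the count was 1, Krt8 (-1.2 ± 0.42, adjusted p = 0.0941), which passed when AT3 neutrophil 1 was left out (-1.85, adjusted p = 0.00951). DESeq2 called 0 as well.

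Markers of tumour epithelium were higher in 2208L than in T11 sorted cells, as the keratins were, and so were markers of other cell types in macrophages. In 2208L macrophages the 12 markers summed to 282 to 483 CPM outside Rn45s, against 49.5 to 67.3 in T11 macrophages, and 8 of 11 tested markers were higher and 0 lower. Epcam had 32.7 ± 17.5 CPM in 2208L macrophages against 2.62 ± 2.3 in T11 macrophages, and Cldn3, a tight junction claudin, 32.3 ± 17 against 0.249 ± 0.43. In the same macrophages 5 of 6 tested T and B cell markers were higher and 0 lower (summed 82.9 to 308 CPM in 2208L, against 12.7 to 29.6 in T11), and 4 of 10 tested fibroblast markers were higher and 0 lower (166 to 368, against 77.5 to 138). Macrophages 2 and 3 of 2208L stood apart from macrophage 1, with TMM factors of 1.57 and 1.51 against 0.854 and receptor densities of 0.607 and 0.639 against 0.227 CPM per kb. Without any 1 of the 3 libraries the difference of 2208L from T11 macrophages was 2.93 to 3.09 for Krt7, 4.78 to 5.0 for Krt8 and 4.25 to 4.75 for Krt18 on the log2 scale. In 2208L neutrophils the epithelial markers summed to 528 to 553 CPM, against 339 to 410 in T11 neutrophils, with 6 of 12 tested markers higher and 0 lower. In AT3 against E0771 macrophages 1 of 11 tested markers was higher and 4 were lower, with a median of -1.43. The marker Cdh1 had 122 ± 17 CPM in 2208L, 111 ± 33 in AT3, 36.4 ± 20 in E0771 and 7.38 ± 4.7 in T11 macrophages. The cultured AT3 line had only 11.4 ± 2.9 normalised CPM of Cdh1, so in AT3 macrophages this marker did not follow the level of the line. 2208L neutrophils also held macrophage markers at 5369 to 7405 CPM, against 805 to 1479 in T11 neutrophils. The part of tumour cells, of other cells or of their RNA in the keratin counts was not tested.

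The 2208L minus T11 difference was unlike the AT3 minus E0771 difference for Krt7, Krt8, Krt18 and Vim in macrophages (27% of all genes called) and for Krt7, Krt8 and Krt18 in neutrophils (8.78%). For Krt8 the 2 differences were 9.29 ± 1.04 apart on the log2 scale in macrophages (adjusted p = 7.58e-08) and 4.39 ± 0.55 in neutrophils (adjusted p = 2.46e-06). For Krt18 in macrophages the difference of 3.87 ± 0.95 (adjusted p = 0.00334) fell to 1.16 (adjusted p = 0.7) without E0771 macrophage 3.

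Vim was above background in all sorted cells and higher in macrophages than in neutrophils of every tumour. It stood between 33.6 times the receptor density in T11 neutrophils and 5665 times in T11 macrophages. In 2208L neutrophils it stood at 110 times, beside 112 times for Krt18. T11 macrophages had 3372, 3713 and 3216 CPM outside Rn45s, against 371, 122 and 173 in T11 neutrophils. E0771 macrophages had 1113, 1208 and 1386, against 507, 523 and 406 in E0771 neutrophils. AT3 macrophages had 1143, 813 and 826, against 215, 428 and 363 in AT3 neutrophils. 2208L macrophages had 705, 587 and 631, against 260, 244 and 240 in 2208L neutrophils. The groups did not overlap in any tumour, and as the mean of the 4 tumours Vim was higher in macrophages by 2.76 ± 0.2 on the log2 scale (adjusted p = 2.34e-17), with 30.3% of all 20364 genes called higher. The median of all genes was -0.54 in this comparison and moved by -1.02 when the scaling came from genes well above background, where Vim stood at 1.76 (adjusted p = 1.22e-14). By tumour the differences were 5.2 ± 0.44 in T11, 2.21 ± 0.38 in AT3, 1.95 ± 0.38 in E0771 and 1.67 ± 0.38 in 2208L (adjusted p between 4.02e-14 and 0.00215).

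Between tumours, Vim was highest in T11 macrophages and lowest in 2208L macrophages, whose libraries overlapped no other group, whereas the libraries of AT3 and E0771 macrophages overlapped. The cultured lines had 3161 CPM outside Rn45s in T11, 2539 in E0771, 2071 in AT3 and 276 in 2208L. Neutrophils had 479 in E0771, 335 in AT3, 248 in 2208L and 222.3 in T11. In the fit Vim was lower in 2208L than in T11 macrophages by 2.52 ± 0.25 on the log2 scale (adjusted p = 3.9e-09), and AT3 and E0771 macrophages did not pass (0.05 ± 0.24, adjusted p = 0.894). Mmp9, a gelatinase of the neutrophil list, had 15.3 ± 14.2 CPM in 2208L macrophages, against 5974 ± 2550 in T11 macrophages, while the other 6 neutrophil markers summed to 243 to 294 CPM in 2208L and 31.4 to 81.4 in T11 macrophages. Macrophage markers summed to 17591 to 25206 CPM in 2208L and 6943 to 8754 in T11 macrophages. The part of these markers in the Vim difference was not tested. In neutrophils Vim did not pass in 2208L against T11 (0.76 ± 0.41, adjusted p = 0.141), nor in AT3 against E0771 (-0.16 ± 0.4, adjusted p = 0.862). T11 neutrophil 1, with 371 CPM, stood above the other T11 neutrophils, and without it the first difference was 1.48 (adjusted p = 0.0147). The sign of that difference turned to -0.55 (adjusted p = 0.0537) when the scaling came from genes well above background.

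**Figure D5:**
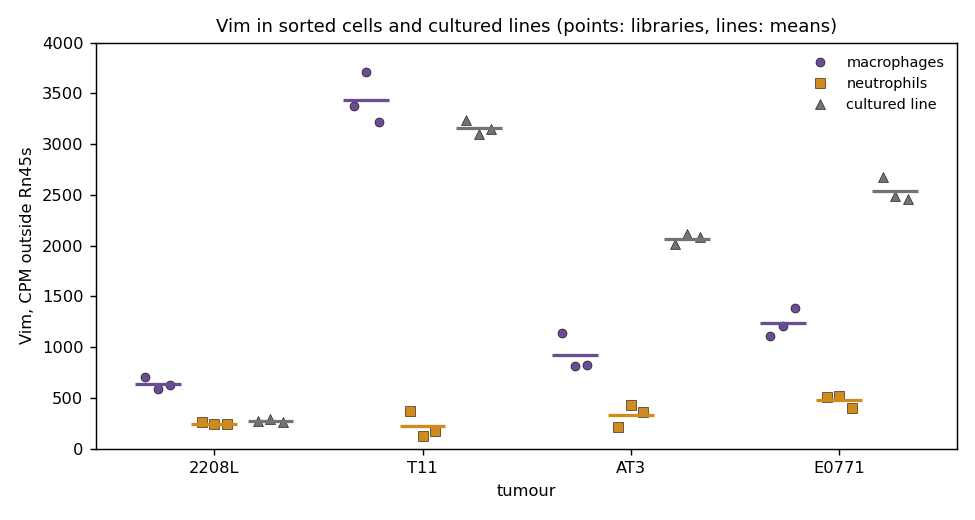
Vim as CPM outside Rn45s in macrophages, neutrophils and the cultured line of 4 tumours, with 1 point per library and a bar at the mean. T11 macrophages sit at 3216 to 3713, near the T11 line, and in 2208L the macrophages (587 to 705) stand above the cultured line (264 to 289).

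All 6 keratins were called lower in macrophages than in neutrophils as the mean of the 4 tumours, so that with Vim all 7 members were called, where 76% of all genes were called and 45.7% were called lower. Krt19 was at -2.33 ± 0.59, Krt14 at -1.73 ± 0.43, Krt8 at -1.45 ± 0.3, Krt5 at -1.35 ± 0.39, Krt18 at -0.68 ± 0.26 and Krt7 at -0.57 ± 0.26 on the log2 scale (adjusted p between 4.74e-05 and 0.0409). Among 44 other keratins tested 38 were also called lower, with a median of -1.49. The receptor density was 0.171 to 0.639 CPM per kb in macrophages and 0.757 to 3.71 in neutrophils, and its part in these calls was not tested. Relative to that density Krt7 stood higher in macrophages of all 4 tumours, such as 30.3 against 15.6 times in 2208L and 5.47 against 1.94 in T11. Krt18 stood higher in macrophages of 2208L, T11 and AT3 and lower in E0771 (4.84 against 5.96 times). The remaining keratins were higher in macrophages of some tumours and lower in others. Krt7 lost its call when any of 12 libraries was left out (adjusted p up to 0.0916), and Krt18 without AT3 neutrophil 2 (-0.57, adjusted p = 0.0521). Krt19 had no count in the 3 AT3 macrophage libraries, which allows up to 0.747 CPM (3 counts over the group), and its 11 counts over the AT3 neutrophil libraries stood at 1.64 times the receptor density. Within single tumours 1 member was called in 2208L and 1 in E0771, Vim in both, and 4 each in T11 and AT3, Vim higher and 3 keratins lower. Of all genes 8.24% were called in 2208L (5.12% higher, 3.11% lower), 18.2% in E0771 (13.2% higher, 4.97% lower), 65.8% in T11 (29.4% higher, 36.4% lower) and 49.9% in AT3 (21.2% higher, 28.7% lower). These counts rose under scaling from genes well above background, to 7 in T11, 7 in AT3 and 3 in E0771.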

How the data were processed

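RNA was sequenced from 48 libraries in 16 groups. The authors deposited 1 table of raw read counts per gene symbol, and per the submitters' processing notes bcl2fastq 2.17, STAR 2.4.2a and the mm10 genome were used. The counting program, its annotation and its use of strand are not given in the sources used here. The files' column names with PyMTE were assigned to PyMT-N by elimination. Total counts ran from 2058329 to 6262942 in lines, from 1862321 to 6240372 in macrophages and from 669862 to 3341097 in neutrophils, of which the ribosomal row Rn45s took 3.88% to 14.9%, 55.0% to 76.2% and 26.8% to 70.3%.

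From the counts, edgeR 4.0.16 in R 4.3.3 gave quasi-likelihood F tests with TMM factors, filterByExpr (minimum count 10, minimum total 15) and a threshold of 0.05 on p-values adjusted over all tested genes after Benjamini and Hochberg. There were 4 fits: 24 line libraries (18348 genes), 12 neutrophil libraries (18158), 12 macrophage libraries (14715) and 24 sorted libraries (20364). A standard error is the log2 fold change divided by the square root of F. DESeq2 1.42.0 served as an alternative. The scaling from genes above background took its factors from genes at 10 or more times the receptor density. Intervals (95%, exact) and floors of 3 counts cover counting error only, since reads without molecular identifiers are not independent molecules. Exon lengths came from GENCODE M21, matched for 22750 symbols by name and 916 by synonym, with 388 unmatched. Replicate pairs differed by more than sampling noise, with a chi-square per degree of freedom of 1.21 to 10.7 over 48 pairs. Python 3.11.15 with pandas 2.3.3, numpy 2.4.6, scipy 1.17.1 and matplotlib 3.10.9 did the rest. Named list genes are the up to 4 called genes per list with the largest change in the mean of the 4 line pairs, and the likeness lists hold the 3 genes with the highest correlation. Plec, Epcam, Cldn3 and Mmp9, and Cdh1 and Krt80 in sorted cells, were named after their values were seen. The members and gene lists were chosen with earlier results of these data known.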

Additional observations from a re-analysis of the deposited data

Results flagged for a closer look

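The differences between same-strain pairs were unlike each other for 6 members in lines (edgeR F test over the 4 pairs, 3 libraries a line). The adjusted p was 7.55e-69 for Krt8, 5.55e-44 for Vim, 7.21e-38 for Krt18, 1.61e-29 for Krt7, 2.76e-20 for Krt14 and 3.75e-12 for Krt19, beside 69.8% of all genes called. Krt8 was higher in PyMT-N, 4T1 and 2208L than in their partners and lower in AT3 than in E0771.

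In macrophages the 2208L minus T11 difference was unlike the AT3 minus E0771 difference for Krt7 (4.63 ± 0.83 on the log2 scale, adjusted p = 0.000131), Krt8 (9.29 ± 1.04, adjusted p = 7.58e-08), Krt18 (3.87 ± 0.95, adjusted p = 0.00334) and Vim (-2.57 ± 0.34, adjusted p = 1.83e-06), by edgeR. In neutrophils the same contrast passed for Krt7 (2.88 ± 0.57, adjusted p = 0.00164), Krt8 (4.39 ± 0.55, adjusted p = 2.46e-06) and Krt18 (3.09 ± 0.55, adjusted p = 0.000618). For Krt7 in neutrophils it was 1.63 (adjusted p = 0.116) when the scaling came from genes well above background.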

How the results depend on the processing

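In lines, 6 tested members kept their calls in the comparisons of PyMT-N with PyMT-M, 4T1 with 67NR and 2208L with T11, and 3 members in AT3 with E0771, under every alternative tried, also without any 1 library (6 to 6 and 3 to 3). Counts of called members moved by over 1.5 times in sorted cells. Under scaling from genes above background the count was 6 for any difference between neutrophils (3 in the report; 3 to 5 without 1 library), 7 in T11 and 7 in AT3 macrophages against neutrophils (4 each; 4 to 5 and 3 to 5) and 3 in E0771 macrophages against neutrophils (1; 1 to 2). In T11 it was also 7 with DESeq2 size factors and with DESeq2. AT3 against E0771 macrophages gave 2 without the low-count filter (1; 1 to 2), and AT3 against E0771 neutrophils 0 to 1 without 1 library (0).

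Signs turned only for differences that had not passed. Krt14 in AT3 against E0771 lines was 0.19 under scaling from genes above background, 0.062 without Rn45s and Lars2, 0.052 with only these lines and -0.30 to 0.15 without 1 library. Krt7 there was -0.028 to 0.45 without 1 library. Vim in AT3 against E0771 macrophages was -0.041 with DESeq2 size factors and -0.041 with DESeq2, -0.22 under scaling from genes above background, -0.13 with only these groups and -0.061 to 0.24 without 1 library. Vim in neutrophils was -0.55 in 2208L against T11 under scaling from genes above background, and -0.62 to 0.18 in AT3 against E0771 without 1 library (positive without AT3 neutrophil 1). The cause was not tested.

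Same-numbered libraries deviated together with correlations between -0.16 and 0.254, so the numbers were not taken as pairs. With the replicate number as a block, the members called were 6 in the first 3 line pairs, 3 in AT3 against E0771 lines, 4 in 2208L against T11 neutrophils and 4 in macrophages, 0 and 1 in AT3 against E0771 neutrophils and macrophages, and 7 in macrophages against neutrophils, as without it. Macrophage and neutrophil columns of a tumour also share their numbers, but no label says that they share an animal, and their correlations ran from -0.107 to 0.132. With these numbers as a block within each tumour, chosen after the data were seen, the members called in macrophages against neutrophils were 7 over the 4 tumours, 1 in 2208L, 4 in T11, 3 in AT3 (4 without it) and 1 in E0771. Depth limits the keratins in sorted cells, where libraries held 470712 to 1755895 counts outside Rn45s.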
